A study of Homo sapiens with 24 samples.

Results

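The 8 human genes TAOK1, ZDHHC20, ANKIB1, NEXN, ZBTB41, SYT16, ENPP4 and CNRIP1 were followed through every library of a comparison of total with cytoplasmic RNA. They are 8 of the 51715 genes in the count files and were listed by symbol, with no numeric threshold, because their ratio of total to cytoplasmic RNA lay towards total RNA in at least 1 cell line. That ratio is therefore given as a description, without a test, and the tests below are of their level between cell lines. The samples were poly(A)-selected RNA from 3 established human lines, none with a treatment named in the labels: U-2 OS from an osteosarcoma, U-251MG from a glioblastoma and A-431 from an epidermoid carcinoma. Each line gave 4 total and 4 cytoplasmic libraries, from replicate cultures, and the cytoplasmic RNA came from cells lysed with their nuclei left whole. 1 of the 24 libraries, of U-2 OS cytoplasmic RNA, matched no entry in the study's list of sequencing runs and was left out of every value unless stated, which left 23. By the study's account a U-2 OS cytoplasmic sample was set aside because its electrophoresis trace held a peak of nuclear RNA; whether it is this library is not stated. Where 3 values are listed together without a line's name, they stand for U-2 OS, then U-251MG, then A-431.

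A messenger RNA is spliced and polyadenylated in the nucleus and then exported, so total RNA holds both nuclear and cytoplasmic copies whereas the cytoplasmic fraction lacks the nuclear ones. The 3′ untranslated region (3′ UTR) follows the coding sequence and carries binding sites for proteins and microRNAs, among them AU-rich elements built around ATTTA, which are known for shortening the life of many messages. GC content, the share of G and C among the bases, is a property of the transcript that also affects how evenly library preparation and sequencing recover it.

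Gene counts per library summed to 19918911 to 32394170, and levels are given as counts per 1000000 (CPM) after TMM scaling. Of the markers of each line, 6 of 8 for A-431, 6 of 7 for U-251MG and 3 of 7 for U-2 OS were highest in their own line. KRT14 was near 0 in A-431, at a median of 0.098 CPM, TWIST2 was at 0.81 CPM in U-2 OS, and the osteoblast genes RUNX2, SPARC, CDH11 and COL5A2 were higher in U-251MG than in U-2 OS. MALAT1, a long non-coding RNA known to stay in the nucleus, was lower in total than in cytoplasmic libraries in each line, at 14.9 to 24.7 CPM against 45.1 to 57.9 CPM in U-251MG, so it went against the label of the fractions. NEAT1, also nuclear, was likewise at 177 to 320.4 CPM in A-431 total RNA and 634 to 777 CPM in A-431 cytoplasmic RNA. MT-CO1, a message made in mitochondria, ran with the labels in each line, at 3708 to 6562 CPM in A-431 total RNA and 12484 to 13152 CPM in A-431 cytoplasmic RNA. The study itself judged nuclear RNA by electrophoresis of the extracts. The cytoplasmic RNA of A-431 was sequenced on another flow cell than its total RNA, so in that line fraction and flow cell cannot be told apart.

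The label under which the genes were grouped, low GC content, held for 7 of the 8. Among the 14359 tested genes with a complete coding transcript in GENCODE release 44, on the build of the count files (hg19, GRCh37), the median GC content was 49.2% and 15.3% of genes lay under 40%. ZBTB41 had 32.9%, ENPP4 34.4%, NEXN 37.1%, ZDHHC20 37.7%, SYT16 37.97%, TAOK1 40.1% and ANKIB1 42.7%. CNRIP1 had 52.7%, above the median, and 71.5% G or C at the third base of its codons, where the median gene had 59.7%. Its transcript with the longest 3′ UTR had 43.7%, so the placing of CNRIP1 depended on the transcript chosen, whereas that choice moved the others by less than 1 percentage point. The low GC content lay in the 3′ UTR and, mostly, in the coding sequence. The 3′ UTRs had 30.02% to 40.5% GC, all 8 below the median of 42.4%. The 5′ UTRs of all 8 were above 50%, from 52.1% in ZBTB41 to 75.8% in ZDHHC20. Against the median 5′ UTR of 65.8%, those of ZBTB41, SYT16 (52.8%) and NEXN (59.6%) were lower and those of the other members higher.

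Long 3′ UTRs were the second shared feature, in 6 of the 8. SYT16 had 11843 bases of 3′ UTR, longer than in 99.5% of tested genes, TAOK1 8881 bases, ZBTB41 5677, ZDHHC20 4125, ENPP4 3048 and ANKIB1 2434, against a median of 1128 bases. NEXN with 1066 bases and CNRIP1 with 852 bases lay below the median. The group was therefore not uniform: NEXN paired low GC content with an ordinary 3′ UTR, and CNRIP1 had neither a long 3′ UTR nor, in its main transcript, low GC content. The coding sequences ran from 495 bases in CNRIP1 to 3270 in ANKIB1, 5 of them above the median of 1446.

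**Figure D1:**
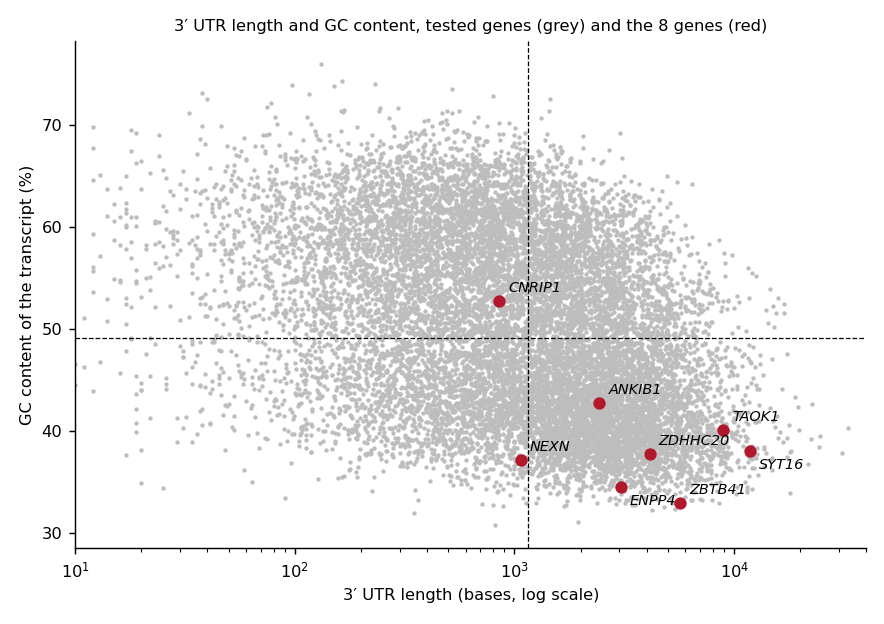
Length of the 3′ UTR (bases, log scale) against GC content of the transcript (%) for tested genes (grey) and the 8 genes (red), with medians as dashed lines. 6 of the 8 genes lie at the lower right, NEXN (1066 bases) is just left of it, and CNRIP1 (852 bases, 52.7%) is the one at the upper left.

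ATTTA was present in the 3′ UTR of all 8 genes, as it was in 70.2% of the tested 3′ UTRs, and its density was above the median gene's 1.62 per kb in all 8, from 2.14 per kb in TAOK1 to 6.89 per kb in ENPP4. The search was made on the transcript's own strand. The longer form TATTTAT, which contains ATTTA, was found in TAOK1, ZBTB41, SYT16, ENPP4 and CNRIP1, and in 33.4% of tested 3′ UTRs. The letters TGTANATA, the core bound by Pumilio proteins, were found in TAOK1 (7 copies), ZBTB41 (3), SYT16 (2), NEXN (1) and ENPP4 (1), and in 27.7% of tested 3′ UTRs. A match of letters is not evidence that a protein binds there. ATTTA and TATTTAT hold only A and T, and all 8 of these 3′ UTRs were below the median GC content. In length, 6 of them were above the median. No comparison at equal GC content or length was made, so nothing is read from these counts. For the 3 genes with the densest ATTTA, the window of the 3′ UTR that held the most copies is shown. Each window holds 30 bases of the 3′ UTR, written 5′ to 3′ on the gene's strand with ATTTA in capitals, at chr6:46113252-46113281 (plus strand) for ENPP4, chr1:197124946-197124975 (minus strand) for ZBTB41 and chr1:78409275-78409304 (plus strand) for NEXN.
ENPP4: tgacacATTTAaagcttttcATTTAaagta
ZBTB41: atacATTTAagtaattaaggcATTTAttgc
NEXN: tattaaATTTAtaaagcaaATTTAtgttgt
These windows, picked for their ATTTA, had 23.3%, 23.3% and 13.3% GC. The whole 3′ UTRs had 30.02% in ENPP4, 30.1% in ZBTB41 and 32.1% in NEXN.

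TAOK1 and its paralogs encode similar proteins with coding sequences of different GC content. TAOK1 and TAOK2 were identical at 61.6% of 992 aligned residues, and TAOK1 and TAOK3 at 74.1% of 893. GC content of the coding sequence was 44.7% in TAOK1, 62.7% in TAOK2 and 46.3% in TAOK3. At the third base of codons it was 41.7%, 72.8% and 53.6%.

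The ratio of total to cytoplasmic RNA on which the genes were chosen was smallest in U-2 OS. The median log2 ratio of the tested members was 0.29 over 8 genes, 0.99 over 8 and 0.89 over the 7 that could be tested in A-431, where the medians of all tested genes were -0.0013, 0.00049 and -0.011. Every total library lay above every cytoplasmic library for 6 of 8, 8 of 8 and 7 of 7, against 17.3%, 22.7% and 22.3% of all tested genes. Since the rule chose on these ratios, nothing is read from these counts. Whether the ratio differed between lines was not tested.

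**Figure D2:**
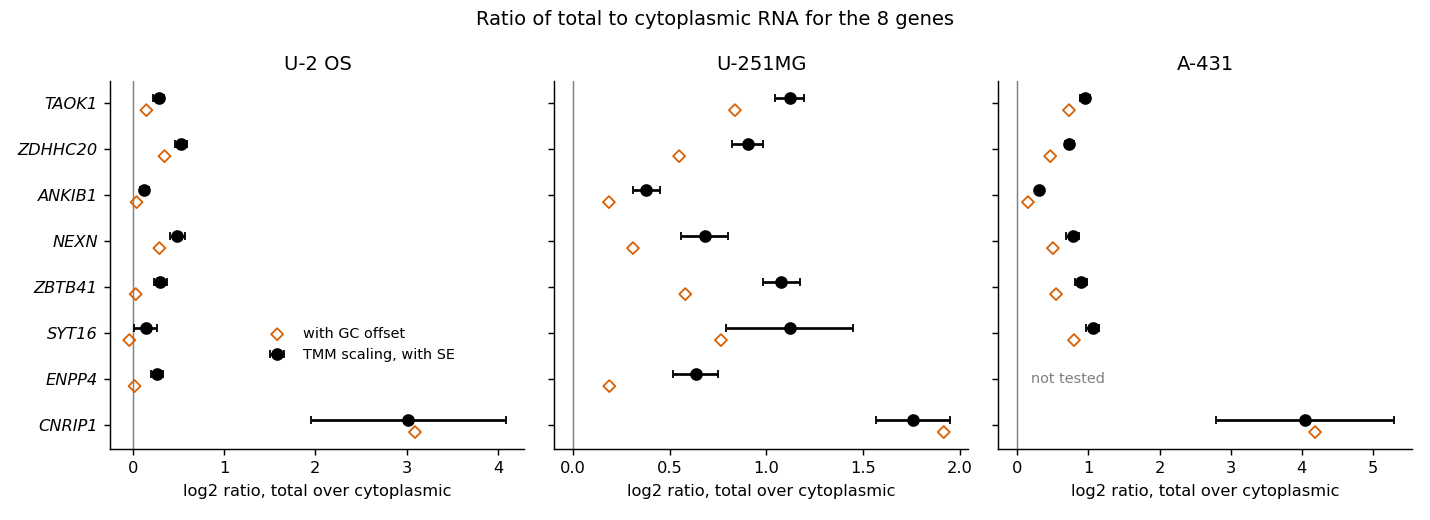
Log2 ratio of total to cytoplasmic RNA in each cell line, with standard error (black) and with an offset for GC content (orange, no error drawn); the horizontal scales differ between panels. With TMM scaling the medians were 0.29, 0.99 and 0.89 on the log2 scale, and with the offset 0.10, 0.56 and 0.55, while CNRIP1 lies far to the right in each panel.

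The ratio followed GC content over all genes. Among genes with GC content under 40%, the median log2 ratio was 0.20, 0.38 and 0.30, and 90.5%, 94.0% and 91.6% of these genes were above 0. Among genes of 60% or more, the medians were -0.24, -0.55 and -0.37. Within the GC classes under 45% and of 45% or more, the median was also higher with long 3′ UTRs. Among genes under 45% GC it was 0.12, 0.22 and 0.19 with a 3′ UTR under 500 bases and 0.15, 0.36 and 0.28 with 4000 bases or more. Among genes of 45% or more it was -0.15, -0.33 and -0.23 with the short 3′ UTRs and -0.052, -0.0012 and -0.011 with the long ones. These GC classes are wide. Whether GC content differed between short and long 3′ UTRs within a class was not tested, so the medians do not separate length from GC content. A per-library offset that removes the smooth dependence of counts on GC content lowered the members' medians to 0.10, 0.56 and 0.55 on the log2 scale. In U-2 OS the offset left log2 ratios of 0.021 for ENPP4, 0.033 for ZBTB41, 0.043 for ANKIB1 and -0.037 for SYT16, and of 0.15 for TAOK1, 0.29 for NEXN, 0.35 for ZDHHC20 and 3.09 for CNRIP1. What GC content contributes by way of the RNA and by way of the library was not tested, and the libraries themselves differed: genes over 60% GC minus genes under 40%, as a difference of median log2 deviations from the average library, ranged from -1.02 to 0.20 in total and from 0.061 to 0.61 in cytoplasmic libraries.

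**Figure D3:**
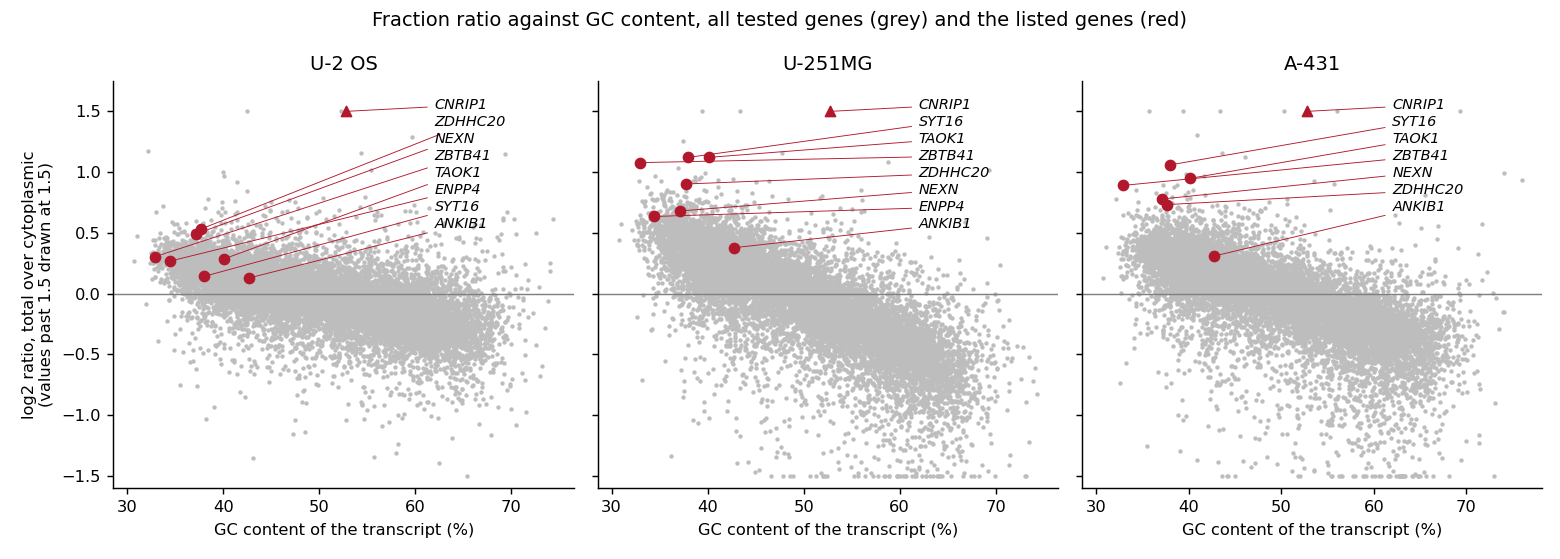
Log2 ratio of total to cytoplasmic RNA against GC content of the transcript (%) for all tested genes with a complete coding transcript (grey) and the listed genes (red) in each line, values beyond 1.5 in either direction being drawn at 1.5. The grey cloud slopes down in each line, from a median of 0.38 below 40% GC to -0.55 at 60% or more in U-251MG, and CNRIP1 (triangle) stands above it at 52.7%.

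TAOK1 encodes a protein kinase of the STE20 family that acts upstream of p38 and Hippo signalling and binds microtubules (chr17:27717381-27878921, plus strand). In U-2 OS it was at 137, 114, 113 and 115 CPM in total RNA and at 95.8, 96.0 and 103.5 CPM in cytoplasmic RNA. In U-251MG the total libraries were at 107, 116, 109 and 127 CPM and the cytoplasmic ones at 50.5, 56.1, 54.8 and 46.8 CPM. In A-431 they were at 82.9, 76.7, 79.4 and 97.0 CPM and at 43.3, 46.8, 43.0 and 42.8 CPM. The fractions did not overlap in any line, and every cytoplasmic library of U-251MG and A-431 lay below every one of U-2 OS. The log2 ratio was 0.29 ± 0.059, 1.12 ± 0.075 and 0.95 ± 0.069 (SE). Averaged over the fractions, the level was lower in A-431 than in U-2 OS by a log2 difference of -0.84 ± 0.055 (SE; edgeR, adjusted p = 1.3e-15), where 73.4% of all 19948 tested genes passed the threshold of 0.001 in either direction. In bulk RNA, fewer cells with the message and less message per cell cannot be told apart. It was lower in U-251MG than in U-2 OS by -0.49 (adjusted p = 7.8e-10), where 70.9% of genes passed. Taken by fraction, the difference was -0.89 in the cytoplasmic libraries and -0.066 in total RNA. The choice of the genes used both fractions, so these values are a description, and whether the fractions differed was not tested. A-431 against U-251MG gave -0.35 (adjusted p = 4.6e-07), where 67.1% of genes passed, and -0.043 (adjusted p = 0.43) with the GC offset.

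**Figure D4:**
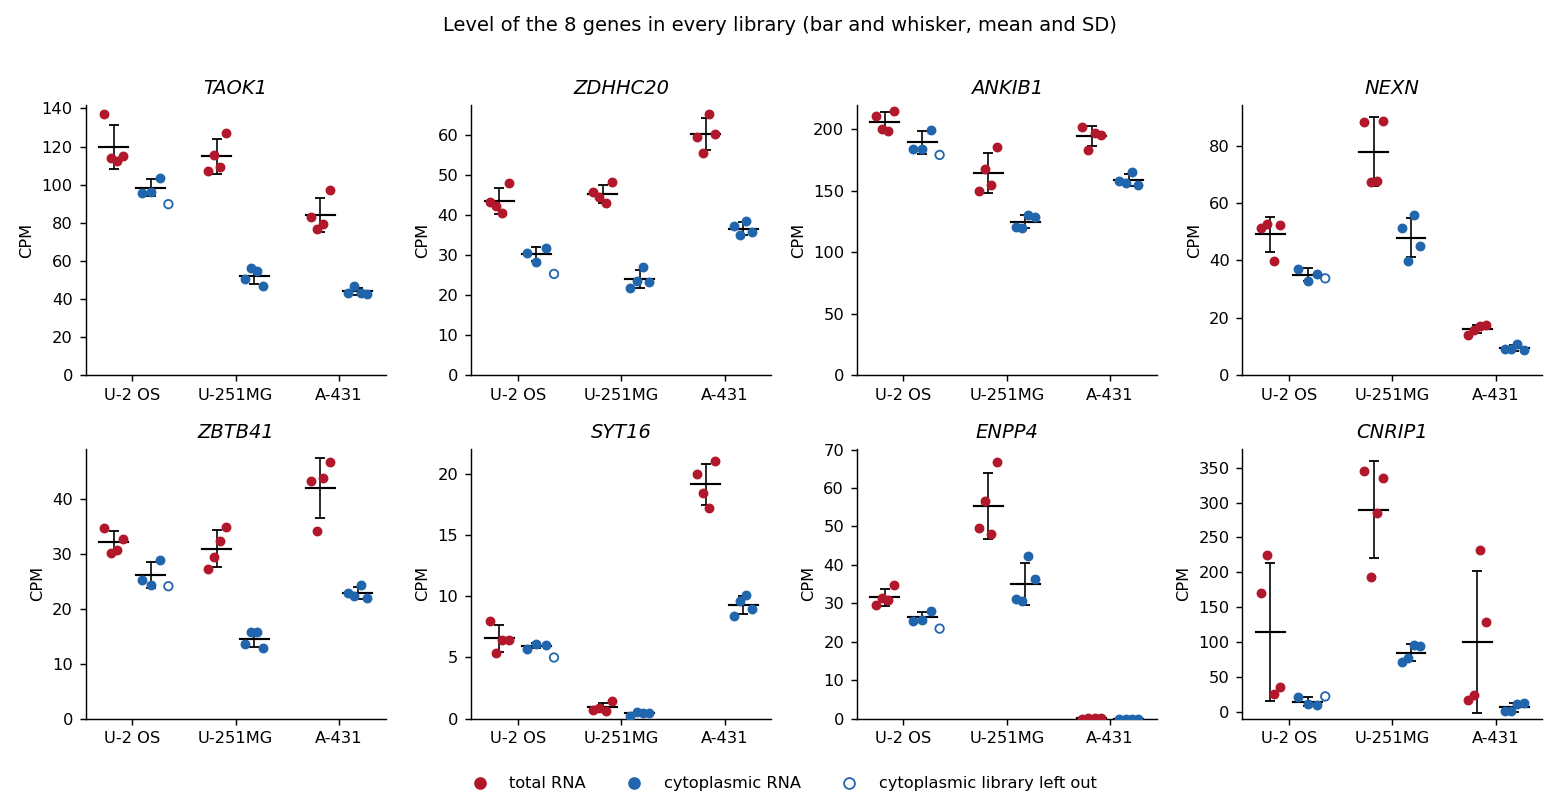
Level (CPM, linear scale) of each gene in the total (red) and cytoplasmic (blue) libraries of each line, with mean and SD; the open circle is the U-2 OS cytoplasmic library that was left out. TAOK1, ZDHHC20, NEXN and ZBTB41 separate the fractions in all 3 lines, ENPP4 is near 0 in A-431, and CNRIP1 spreads from 16.5 to 232 CPM within A-431 total RNA.

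Of 12 genes listed as the other TAO kinases with their Hippo and p38 partners, 3 of 12 tested, 4 of 12 and 4 of 11 passed the adjusted p of 0.001 towards total RNA, as did 4.75%, 5.93% and 10.2% of all tested genes. Towards cytoplasmic RNA 0, 1 and 1 passed, a direction in which 3.61%, 6.98% and 9.51% of all tested genes passed. In U-2 OS 2 of them had an unadjusted p below 0.05 towards cytoplasmic RNA, and DESeq2 called 1. The list medians were 0.13, 0.40 and 0.28 on the log2 scale. MOB1A, a co-activator of the LATS kinases, passed in all 3 lines at log2 ratios of 0.26, 0.69 and 0.52 (edgeR, adjusted p = 2.1e-04, 8.2e-05 and 1.9e-05). Its GC content was 37.3% and its 3′ UTR 4040 bases. STK4, the Hippo kinase MST1, passed in U-251MG at 0.35 and A-431 at 0.33, while MAPK14, p38 alpha, had ratios of 0.089, 0.16 and 0.15 and did not pass.

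ZDHHC20, which attaches palmitate to cysteines of membrane proteins such as EGFR (chr13:21922923-22033509, minus strand), was measured at 605 to 2059 counts per library. U-2 OS total libraries were at 43.4, 42.3, 40.5 and 48.1 CPM and the cytoplasmic ones at 30.5, 28.4 and 31.9 CPM. U-251MG was at 45.8, 44.6, 43.0 and 48.2 CPM in total and 21.8, 23.4, 27.2 and 23.4 CPM in cytoplasmic RNA. A-431, which carries very high EGFR, was the highest line, at 59.6, 55.7, 65.4 and 60.5 CPM in total and 37.4, 35.0, 38.5 and 35.9 CPM in cytoplasmic RNA. Every total library lay above every cytoplasmic library of its line. The log2 ratios were 0.53 ± 0.068, 0.90 ± 0.079 and 0.73 ± 0.063 (SE). The level was higher in A-431 than in U-2 OS by 0.37 on the log2 scale (edgeR, adjusted p = 6.8e-08) and than in U-251MG by 0.51 (adjusted p = 3.9e-11). U-251MG against U-2 OS gave -0.14 and did not pass (adjusted p = 0.017), with 0.051 in total and -0.31 in cytoplasmic libraries. It passed with the GC offset, at -0.17, and with limma on the deposited RPKM values, at -0.30.

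The other DHHC palmitoyltransferases lay on both sides of 0. Of 23 listed, 22 were tested in U-2 OS and 19 in each of the other lines, and 0, 1 and 0 passed towards total RNA and 2, 4 and 1 towards cytoplasmic RNA, with list medians of 0.062, -0.0034 and -0.0031. In U-251MG the calls were ZDHHC21 at 0.57 towards total RNA and ZDHHC8 at -0.90, ZDHHC24 at -0.89, ZDHHC12 at -0.69 and ZDHHC16 at -0.39 towards cytoplasmic RNA, of which ZDHHC21, ZDHHC8, ZDHHC24 and ZDHHC16 were named after their values were seen. Without adjustment 7, 3 and 3 had a p below 0.05 towards total RNA, and there DESeq2 called 0, 2 and 1. The listed genes had a median GC content of 51.6% to 52.4% over those tested. ZDHHC12, with 64.6% GC, passed towards cytoplasmic RNA in all 3 lines at log2 ratios of -0.43, -0.69 and -0.65. ZDHHC5, ZDHHC7 and ZDHHC3, the 3 most abundant, had ratios between -0.0034 and 0.17 and did not pass in any line.

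ANKIB1, an ankyrin-repeat ubiquitin ligase of the RING-between-RING class (chr7:91875288-92030697, plus strand), was the most abundant of the low-GC members per length and had the smallest ratios. In U-2 OS it was at 211, 200.4, 199 and 215 CPM in total RNA and at 184, 184 and 199.8 CPM in cytoplasmic RNA, so that the ranges overlapped. In U-251MG it was at 149.5, 167, 155 and 186 CPM in total and 120.3, 119.9, 130.2 and 129 CPM in cytoplasmic RNA. In A-431 it was at 202, 183, 197 and 196 CPM and at 158, 157, 165 and 155 CPM. The log2 ratios were 0.13 ± 0.051, 0.38 ± 0.069 and 0.31 ± 0.051 (SE), higher than in 70.6%, 85.4% and 85.5% of tested genes. The level was lowest in U-251MG, by -0.46 against U-2 OS (edgeR, adjusted p = 1.8e-11), and A-431 was above U-251MG by 0.29 (adjusted p = 1.6e-07). A-431 lay below U-2 OS by -0.17 (adjusted p = 7.3e-04), a call that was lost when any of 11 single libraries was left out, at -0.18 to -0.15 on the log2 scale, and the sign turned to 0.20 with the GC offset. Its first exon shares 193 bases with KRIT1 on the other strand, and the counting did not use strand, so reads there cannot be assigned.

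The other RING-between-RING ligases were spread around 0. Of 13 listed, 0 of 12 tested, 0 of 13 and 2 of 12 passed towards total RNA, against 2, 1 and 3 towards cytoplasmic RNA, with medians of -0.069, 0.018 and -0.0061. Towards total RNA 2 genes had an unadjusted p below 0.05 in U-2 OS, as had 4 in U-251MG, while DESeq2 called 0 and 1. ARIH1, with 40.1% GC and a 3′ UTR of 19695 bases, had log2 ratios of 0.12, 0.26 and 0.25 and passed in A-431 (edgeR, adjusted p = 7.8e-04). CUL9, with 58.5% GC, passed towards cytoplasmic RNA in all 3 lines at -0.26, -0.57 and -0.33. RNF216 at -0.064, -0.20 and -0.076 and ARIH2 at -0.18, -0.27 and -0.25 did not pass.

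NEXN encodes nexilin, an actin-binding protein of Z-discs and cell adhesions (chr1:78354198-78409580, plus strand). U-2 OS was at 51.3, 52.6, 39.8 and 52.3 CPM in total and 37.1, 32.7 and 35.3 CPM in cytoplasmic RNA. U-251MG was at 88.3, 67.2, 67.6 and 88.4 CPM in total and 51.2, 39.9, 55.7 and 44.98 CPM in cytoplasmic RNA. A-431 was lowest, at 14.1, 15.7, 16.99 and 17.6 CPM in total and 9.12, 9.09, 10.97 and 8.76 CPM in cytoplasmic RNA. The fractions did not overlap in any line, at log2 ratios of 0.49 ± 0.084, 0.68 ± 0.12 and 0.78 ± 0.093 (SE). The level fell in the order U-251MG, U-2 OS, A-431: U-251MG was above U-2 OS by 0.56 on the log2 scale (edgeR, adjusted p = 2.7e-07), and A-431 was below U-2 OS by -1.74 (adjusted p = 2.7e-17) and below U-251MG by -2.31 (adjusted p = 1.9e-20). NEXN shares 136 exon bases with the antisense NEXN-AS1, which unstranded counts cannot separate.

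Actin cross-linkers and stress fibre proteins, 15 genes, passed towards total RNA in 1 of 13, 1 of 13 and 5 of 14 tested, and towards cytoplasmic RNA in 1 in each line, with medians of 0.015, 0.069 and 0.21. FLNA, filamin A, the most abundant, had ratios of opposite sign: its log2 ratio was -0.39 in U-2 OS (edgeR, adjusted p = 6.4e-05), -0.38 in U-251MG, which did not pass (adjusted p = 0.0063), and 0.65 in A-431 (adjusted p = 1.5e-05). The alpha-actinins ACTN4, at -0.025, 0.13 and 0.17, and ACTN1, at 0.015, -0.059 and 0.016, did not pass.

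ZBTB41, a BTB-domain zinc finger factor (chr1:197122812-197170423, minus strand), had the lowest GC content of the 8, lower than in all but 0.139% of tested genes. U-2 OS was at 34.8, 30.3, 30.8 and 32.8 CPM in total and 25.2, 24.3 and 28.9 CPM in cytoplasmic RNA. U-251MG was at 27.2, 29.6, 32.3 and 35.0 CPM in total and 13.6, 15.7, 15.7 and 12.9 CPM in cytoplasmic RNA. A-431 was at 43.4, 34.3, 43.98 and 46.8 CPM in total and 22.9, 22.4, 24.5 and 22.1 CPM in cytoplasmic RNA. The fractions did not overlap, and the cytoplasmic level was lowest in U-251MG. The log2 ratios were 0.30 ± 0.072, 1.08 ± 0.098 and 0.89 ± 0.083 (SE), and 0.033, 0.58 and 0.55 with the GC offset. A-431 was above U-251MG by 0.55 (edgeR, adjusted p = 2.0e-09) and U-251MG below U-2 OS by -0.45 (adjusted p = 2.4e-07), the latter being -0.82 in cytoplasmic and -0.059 in total libraries. A-431 against U-2 OS gave 0.10 (adjusted p = 0.15) and passed at 0.60 with the GC offset. Taken by fraction, it was 0.41 in total and -0.16 in cytoplasmic RNA, a description since the choice used both fractions. The difference between fractions was not tested.

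Of 42 other ZBTB factors, 4 of 39, 5 of 39 and 4 of 37 tested passed towards total RNA, and 1, 3 and 2 towards cytoplasmic RNA, with medians of 0.025, 0.022 and -0.093. ZBTB33, the methyl-CpG binder Kaiso, passed in all 3 lines at 0.33, 0.49 and 0.42, with 37.2% GC. ZBTB17, known as MIZ1, with 62.3% GC, passed towards cytoplasmic RNA in all 3 at -0.59, -0.61 and -0.54. ZBTB38 passed in A-431 at 0.41, while ZBTB4 and ZBTB1 did not pass in any line.

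SYT16, an atypical synaptotagmin whose C2 domains lack the usual calcium-binding residues (chr14:62278692-62579268, plus strand), had the longest 3′ UTR of the 8 and, in U-2 OS and U-251MG, the lowest level per length, whereas in A-431 ENPP4 was lower. In A-431 it was at 19.9, 18.4, 17.2 and 21.003 CPM in total and 8.40, 9.61, 10.1 and 8.97 CPM in cytoplasmic RNA. In U-2 OS it was at 8.01, 5.35, 6.40 and 6.45 CPM in total and 5.71, 6.13 and 6.03 CPM in cytoplasmic RNA, and the ranges overlapped. In U-251MG it was detected at 14 to 41 counts per total library and 7 to 15 per cytoplasmic library, 0.62 to 1.48 CPM and 0.25 to 0.55 CPM. The log2 ratios were 0.14 ± 0.12, 1.12 ± 0.33 and 1.06 ± 0.086 (SE), so the size in U-251MG rests on few reads. Leaving out single libraries moved the U-2 OS ratio from 0.040 to 0.22. Within a fraction, every A-431 library lay above every U-2 OS library and these above every U-251MG library. A-431 was above U-2 OS by 1.09 (edgeR, adjusted p = 1.1e-12) and above U-251MG by 4.39 (adjusted p = 9.0e-26), and U-251MG was below U-2 OS by -3.30 (adjusted p = 5.5e-21). A-431 exceeded U-2 OS by 1.57 in total and 0.66 in cytoplasmic RNA. The exons of SYT16 share 828 bases with a protein-coding gene on its strand, and 765 and 172 bases with antisense long non-coding RNAs. None of these is in the count files, and reads on the shared bases cannot be assigned.

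Of 16 other synaptotagmins, 11, 5 and 3 were tested, and 1, 0 and 1 passed towards total RNA and 0, 1 and 0 towards cytoplasmic RNA. Towards total RNA 2 had an unadjusted p below 0.05 in U-251MG, and DESeq2 called 1. Towards cytoplasmic RNA 0 had one in U-2 OS and 2 in A-431, and DESeq2 called 0 in both. Both calls towards total RNA were SYT14, the only listed gene that was aligned with SYT16 (45.2% of 640 aligned residues identical). SYT14 had 34.5% GC and a 3′ UTR of 10347 bases. Its log2 ratios were 0.40 in U-2 OS (edgeR, adjusted p = 1.3e-04), 0.96 in U-251MG (adjusted p = 0.00103, not past the threshold) and 0.75 in A-431 (adjusted p = 5.3e-05). The coding sequences of the pair differed in composition, with 49.8% GC in SYT16 and 38.7% in SYT14. SYT11, at 0.14 and 0.23, and SYT1, at 0.054 and 0.36, did not pass in U-2 OS and U-251MG and were not tested in A-431.

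ENPP4, a membrane enzyme that splits dinucleotides such as diadenosine triphosphate (chr6:46097726-46114425, plus strand), was all but missing from A-431. U-251MG was highest, at 49.6, 56.7, 48.2 and 66.9 CPM in total and 31.1, 30.7, 42.4 and 36.3 CPM in cytoplasmic RNA. U-2 OS was at 29.5, 31.5, 30.7 and 34.6 CPM in total and 25.5, 25.8 and 27.9 CPM in cytoplasmic RNA. In A-431 it had 0, 1, 1 and 1 counts in total and 0 counts in each of the 4 cytoplasmic libraries, so no ratio could be given there. The fractions did not overlap in the other lines. The log2 ratio was 0.27 ± 0.071 (SE) for U-2 OS and 0.63 ± 0.12 for U-251MG, and with the GC offset 0.021 and 0.19. The 3 counts in A-431 against 5473 in U-2 OS gave a 2341-fold lower share of counts (95% exact interval 801 to 11355), and against 9414 in U-251MG a 3359-fold lower share (1149 to 16290), intervals that cover counting error only. U-251MG was above U-2 OS by 0.61 on the log2 scale (edgeR, adjusted p = 8.7e-09), in both fractions, at 0.80 and 0.44. On the deposited RPKM values limma gave 0.15 and the difference did not pass.

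Of 6 other ENPP ectoenzymes, 3 were tested in U-2 OS and U-251MG and none in A-431, and 0 passed in either direction by edgeR or DESeq2, while 1 and 2 had an unadjusted p below 0.05 towards total RNA. ENPP1, which makes pyrophosphate, was at 0.19 and 0.54 on the log2 scale (edgeR, adjusted p = 0.10 and 0.021). ENPP5, 48.8% identical to ENPP4 over 445 residues, was at 0.059 and 0.80, and ENPP2, or autotaxin, at 0.056 and 0.018.

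CNRIP1 binds the C-terminal tail of the cannabinoid receptor CB1 (chr2:68511303-68547183, minus strand), and stood apart from the other 7 genes in composition, ratio and spread. In U-251MG it was at 345, 193, 285 and 335 CPM in total and 70.6, 77.6, 95.9 and 94.2 CPM in cytoplasmic RNA, a log2 ratio of 1.76 ± 0.19 (SE). In U-2 OS the total libraries were at 171, 225, 25.2 and 35.9 CPM and the cytoplasmic ones at 21.6, 10.97 and 9.53 CPM. In A-431 the total libraries were at 16.5, 23.6, 232 and 128 CPM and the cytoplasmic ones at 0.996, 0.785, 11.01 and 12.3 CPM. The libraries of a group thus fell in a high and a low set in both lines. Every high one had shared its sequencing lane with a U-251MG library, while the low ones had shared it with the remaining line. The mean log2 difference between these sets was 2.70 in U-2 OS total, 3.12 in A-431 total and 3.57 in A-431 cytoplasmic libraries. The smallest of the 3 differences ranked first among the 10298 genes whose mean log2 CPM reached 3, and the next gene, VCAN, had 0.28; this ranking was chosen after the values were seen. The 5 other members in that ranking had a smallest difference between -0.069 and 0.11. NEXN was the highest of them, at rank 25, with 0.19 in U-2 OS total, 0.22 in A-431 total and 0.11 in A-431 cytoplasmic libraries.

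The cause of the lane pattern was not tested, and within a group lane partner and replicate library cannot be told apart. The 7 U-251MG markers summed to 6692 to 7714 CPM in U-251MG and to 2.29 to 5.01 CPM in A-431, where the libraries that shared a lane with U-251MG were at 2.54 to 5.01 CPM and the others at 2.29 to 4.39 CPM. FABP7, a fatty acid-binding protein of glia, had at most 2 counts in any A-431 library, and ENPP4 at most 1. Libraries of the same line did not share a lane, so no ratio could be taken within 1 lane. Over libraries with the same partner line, the CNRIP1 ratio was above 0 in each set. It was 3.19 with libraries that shared a lane with U-251MG and 1.58 with A-431 in U-2 OS, 1.70 with U-2 OS and 1.85 with A-431 in U-251MG, and 4.50 with U-2 OS and 3.97 with U-251MG in A-431, on the log2 scale. The values 3.19 and 1.70 each rest on 1 cytoplasmic library. The pooled ratios of 3.02 ± 1.06 in U-2 OS and 4.04 ± 1.25 (SE) in A-431 moved, with single libraries left out, over 2.44 to 3.47 and 3.20 to 4.62.

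**Figure D5:**
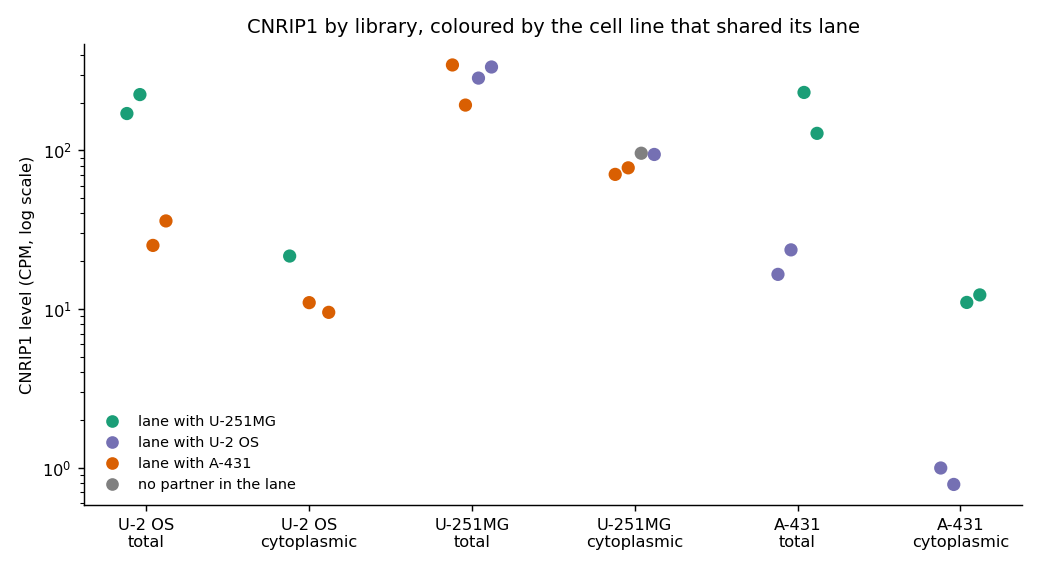
Level of CNRIP1 (CPM, log scale) in each of the 23 libraries by group, coloured by the cell line whose library shared its lane. In U-2 OS and A-431 the libraries that shared a lane with U-251MG are the higher ones in each group, for example 128 and 232 CPM against 16.5 and 23.6 CPM in A-431 total RNA.

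The difference in CNRIP1 level between lines changed with the libraries that were used. A-431 was below U-251MG by -2.65 on the log2 scale (edgeR, adjusted p = 6.9e-04), a call that was lost when any of 13 single libraries was left out, at -2.86 to -2.46. A-431 against U-2 OS gave -0.68 ± 0.65 (SE; adjusted p = 0.34) over all libraries and -2.06 (adjusted p = 6.8e-10) with the libraries that had not shared a lane with U-251MG, a comparison added after the data were seen. U-251MG was above U-2 OS by 1.97 and did not pass (adjusted p = 0.0071). Of 10 endocannabinoid receptors and enzymes, 8, 8 and 7 were tested, 0 passed towards total RNA in any line by edgeR, and 0, 2 and 2 passed towards cytoplasmic RNA, with medians of -0.14, -0.20 and -0.19. Towards total RNA 0, 1 and 1 had an unadjusted p below 0.05, and DESeq2 called 0, 1 and 0. DAGLB, which makes 2-arachidonoylglycerol, passed in U-251MG at -0.45, while MGLL and ABHD12, which degrade it, did not pass.

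Between lines, 6 of the 8 genes passed for A-431 against U-2 OS, 8 for A-431 against U-251MG and 6 for U-251MG against U-2 OS. These shares are to be read beside 73.4%, 67.1% and 70.9% of all tested genes, so a difference in level between these lines was the ordinary case. The levels per length, with CPM divided by the transcript's length in kb, ran in U-2 OS total RNA from 32.5 ± 1.26 for ANKIB1 through NEXN at 14.9 ± 1.87, TAOK1 at 9.46 ± 0.916, ZDHHC20 at 8.14 ± 0.603, ENPP4 at 6.804 ± 0.472 and ZBTB41 at 3.745 ± 0.239 to SYT16 at 0.461 ± 0.0772 (SD, n = 4). TAOK1 and ZDHHC20 did not lie apart by more than the sum of their SDs, and CNRIP1, at 60.2 ± 52.2, could not be placed.

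The calls among the 137 relatives followed GC content much as those of all tested genes did. Of the relatives under 45% GC, 8 of 48, 10 of 50 and 13 of 42 tested passed towards total RNA and 0 towards cytoplasmic RNA by edgeR, with medians of 0.14, 0.30 and 0.26. Of all tested genes under 45% GC, 12.7%, 16.9% and 29.4% passed towards total and 0.123%, 0.235% and 0.741% towards cytoplasmic RNA, with medians of 0.15, 0.29 and 0.24. Towards cytoplasmic RNA 0, 1 and 2 of the low-GC relatives had an unadjusted p below 0.05, and DESeq2 called 0, 1 and 0. Of those with 50% or more, 1 of 60, 1 of 51 and 2 of 50 passed towards total and 6, 13 and 10 towards cytoplasmic RNA, with medians of -0.13, -0.38 and -0.24. Of all tested genes in that class, 0.728%, 0.128% and 0.74% passed towards total and 8.55%, 17% and 20.8% towards cytoplasmic RNA. The medians of the 8 members were higher than those of the low-GC relatives in each line, which the choice of the members fixes.

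Across the 23 libraries, the genes whose log2 level was most like that of each member, among 9214 protein-coding genes, were KIF2A (Pearson r = 0.975) and DENND4A (0.966) for TAOK1, CREB1 (0.972) and AP3S1 (0.966) for ZDHHC20, and SPIN1 (0.978) and YAP1 (0.976) for ANKIB1. For NEXN they were HBS1L and ENAH (both 0.984), for ZBTB41 ATF7IP (0.968) and NCKAP1 (0.942), for SYT16 HEATR5A (0.990) and FRRS1 (0.990), for ENPP4 TBC1D9 (0.999) and SFRP1 (0.999), and for CNRIP1 MAN2A1 (0.835) and ERLEC1 (0.829). The 23 points share 3 lines, 2 fractions and the GC structure of the libraries, so these values describe likeness and carry no p. All 16 of these genes had GC content below 50%, where the median of tested genes was 49.2%. Since the libraries they were picked on differ in GC structure, nothing is read from this count. Between the members themselves, r was highest for ENPP4 with NEXN (0.946) and ZBTB41 with ZDHHC20 (0.930) and lowest for ENPP4 with SYT16 (-0.713). ENPP4 and NEXN were both lowest in A-431, where SYT16 was highest.

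The U-2 OS cytoplasmic library that was left out was at 89.8 CPM for TAOK1, 25.3 for ZDHHC20, 179 for ANKIB1, 33.7 for NEXN, 24.2 for ZBTB41, 4.99 for SYT16, 23.4 for ENPP4 and 21.9 for CNRIP1. For all 8 it lay below every U-2 OS total library. Its share of reads outside exons was 18.6%, against 14.57% to 15.4% in the other U-2 OS cytoplasmic libraries, and MALAT1 took 0.0079% of its counts, against 0.00508% to 0.00606%. With it included, the U-2 OS log2 ratios were 0.30 for TAOK1, 0.58 for ZDHHC20, 0.49 for NEXN and 2.82 for CNRIP1.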

How the data were processed

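The authors mapped the reads with TopHat 1.1.4 (build hg19, also called GRCh37), handled them with SAMtools 0.1.8 and made unstranded whole-number counts of exon reads per Ensembl gene with HTSeq 0.4.6. Entries that name no gene held 25.9% to 33.6% of a file's counts and were left out. The deposited RPKM values, made with rpkmforgenes, served within genes only, since the length they implied for TAOK1 had a median of 554 bases and ranged from 471 to 607 bases over libraries, against a transcript of 12643. The labels name Trizol and paired-end libraries, whereas the methods of the study describe column extraction and single reads.

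Libraries were tied to sequencing runs and lanes by the read totals of the study's run list, which left out 1 U-2 OS cytoplasmic library. Of the 23 tied, 22 matched in all 4 totals. Library 14, of U-2 OS cytoplasmic RNA, matched in 3. It is the only library of its group placed on flow cell A and in a lane with U-251MG. Groups came from the labels, which number the libraries 1 to 24. Level between lines was tested in 1 model over 6 groups and the ratio within each line. Both used edgeR 4.0.16 (R 4.3.3, TMM, filterByExpr, robust quasi-likelihood test, p adjusted by Benjamini-Hochberg over all tested genes, threshold 0.001). Line contrasts average both fractions. The p-values measure the spread between replicate libraries of 1 line each and take all libraries as independent. Whether both fractions came from the same cultures is not stated. If they did, the line contrasts count each culture in both fractions, and their p-values are too small. Each gene is represented by its complete transcript of longest coding length in GENCODE release 44 lifted to GRCh37; sequences were read from that genome. A comparison of coding stretches between paralogs is not reported here. The GC offset subtracts, per library, a spline with 5 degrees of freedom of log2 CPM deviations on GC content. Alternatives used DESeq2 1.42.0, limma 3.58.1 on log2(RPKM + 0.1) and log2(RPKM + 1), RLE scaling, no filter, and single libraries left out. In simulated ratio data, the calls among 100 genes changed by a log2 ratio of 0.5 and 100 changed by 1 were 61 and 73 for U-2 OS (18049 genes), 27 and 76 for U-251MG (16128 genes) and 68 and 78 for A-431 (16376 genes).

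Per gene, the named relatives are the 3 most abundant of its list among those tested in most lines, and those called one way in all 3 lines. The genes most alike are the 2 with the highest Pearson r of log2 CPM (prior count 2) among protein-coding genes with a mean of at least 3. VCAN and FABP7 were named after their values were seen. The members, lists and tests were chosen with earlier results of these data known.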

Additional observations from a re-analysis of the deposited data

Results flagged for a closer look

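Of 39 sets of 4 libraries, 4 held a library that stood apart from the rest by Dixon's test at the 95% level, where chance gives about 1 in 20. TAOK1 was at 137 CPM in 1 U-2 OS total library, where the median was 115 CPM, and at 46.8 CPM in 1 A-431 cytoplasmic library, where the median was 43.2 CPM. NEXN was at 39.8 CPM in 1 U-2 OS total library, where the median was 51.8 CPM, and at 10.97 CPM in 1 A-431 cytoplasmic library, where the median was 9.11 CPM. These libraries differ from one another, and none of the 4 values closes the gap between total and cytoplasmic RNA.

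FLNA lay below its cytoplasmic libraries in every total library of U-2 OS and U-251MG, at log2 ratios of -0.39 and -0.38, and above them in every total library of A-431, at 0.65. The difference between lines was not tested.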

How the results depend on the processing

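The members' median ratio stayed above 0 under every alternative that was run. With single libraries left out it ranged from 0.25 to 0.34, from 0.84 to 1.04 and from 0.84 to 0.98 for U-2 OS, then U-251MG, then A-431, the order kept below. It moved furthest with the GC offset, to 0.10, 0.56 and 0.55, each below the range of its line. Between lines, the number of members past the threshold stayed within 1.5 times. The sign turned for ANKIB1 in A-431 against U-2 OS with the GC offset (0.20), for ZBTB41 in the same contrast in cytoplasmic libraries alone (-0.16) and for ZDHHC20 in U-251MG against U-2 OS in total libraries alone (0.051).

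The count of all genes past the threshold for the ratio was 1509, 2083 and 3234 under the settings of the report and depended more on the setting. With the GC offset it was 560, 315 and 1563. On log2(RPKM + 0.1) limma called 0, 3 and 255 genes, and on log2(RPKM + 1) 0, 1 and 225, although 3743 and 3749 genes in U-2 OS had an unadjusted p below 0.05, and edgeR called 858 there towards total RNA. One model over all groups gave 190 for U-2 OS and 4948 for U-251MG, where DESeq2 gave 4218 and the unfiltered fit 3765. Flow cell A alone gave 126 for U-2 OS and 52 for U-251MG. Lanes shared with 1 other line, added after the data were seen, gave 97 and 578 for U-2 OS, 9 with U-2 OS and 2553 with A-431 as partner of U-251MG, and 740 and 1235 for A-431. Leaving out 1 library gave 459 to 2612, 533 to 1837 and 1815 to 3874. The single libraries whose absence moved the count by over 1.5 times were 2, 3, 4, 14 and 15 for U-2 OS (lowest without 15, highest without 3), 5, 6, 7, 17, 18 and 20 for U-251MG (lowest without 18), and 9 and 12 for A-431. The causes were not tested.

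No paired analysis was run. The library numbers in the labels run from 1 to 24 and no 2 groups share one. The study's run list numbers the replicates within each line and fraction, and whether equal numbers mean the same culture is not stated. The depth limits SYT16 in U-251MG, with 7 to 41 counts, and ENPP4 in A-431.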
